A study of Homo sapiens with 3 samples.

Results

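Collagens are the main structural proteins of the extracellular matrix, and 41 collagen genes were followed here across a fibroblast culture taken through a chemical induction toward neurons. The 41 genes were chosen by name, as a listed set of collagen chain genes present in all 3 deposited gene tables, and make up 41 of 32732 shared genes. No expression value was used in the choice. They fall into 8 classes by the assembly they form: 11 fibrillar, 6 basement membrane, 1 anchoring fibril, 3 network-forming, 5 beaded, 9 FACIT (fibril-associated collagens with interrupted triple helices), 2 multiplexin and 4 transmembrane genes.

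Each collagen is a trimer of alpha chains wound into a triple helix, made of 1 chain type or of several, so that some genes need a partner chain from another gene. Fibrillar collagens give dermis, bone and cartilage their tensile strength. Type IV builds the sheet of the basement membrane, type VI forms beaded microfilaments around cells, and FACITs sit on the fibril surface. Transmembrane collagens stay anchored in the plasma membrane and can be shed from it. Dermal fibroblasts are a classical source of types I, III, V, VI and XII, while neurons are known for little fibrillar collagen.

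In all, 3 groups were available, with 1 library each. At day 0 the library came from wild-type BJ cells, a human skin fibroblast line. The day 3 and day 5 libraries held wild-type FiN cells, labelled as induced neuron cells. According to the protocol in the labels, BJ cells on poly-D-lysine were grown in serum medium until the dish was 80% covered and then moved to an induction medium with 10 µM forskolin, an adenylyl cyclase activator. From day 2 they were kept in a maturation medium with 10 µM forskolin, and on day 5 forskolin was withdrawn. All 3 groups carry the same treatment label, reprogramming, and the sources used here do not say whether forskolin had reached the day 0 cells. The cells come from 1 line, with no untreated culture at day 3 or day 5.

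The kept cells numbered 16773 at day 0, 11454 at day 3 and 9219 at day 5, with a median of 14039, 1324 and 4374 UMIs (unique molecular identifiers, 1 per captured RNA molecule) per cell. Levels are CPM, a gene's UMIs scaled by the library's total over the shared genes. A range given after a level in parentheses is its exact Poisson 95% interval. The groups have 1 library apiece, so no differences were tested, and these ranges cover counting error only. A gene is called higher or lower when the ratio of the 2 CPM values was at least 2, the larger was at least 10 CPM and their intervals were separate. In the labels the day 0 and day 3 protocols speak of nuclei and of an ATAC kit, and the day 5 protocol of dissociated cells and a 3′ gene expression kit, so preparation and day cannot be told apart at day 5. Mitochondrial transcripts took 6.45%, 0.745% and 5.01% of UMIs at days 0, 3 and 5, and the nuclear RNA MALAT1 took 3.14%, 21.6% and 7.35%. Ribosomal protein genes took 16.0%, 3.84% and 2.02%. The day 0 and day 3 libraries thus differed in these shares and in depth although their protocol labels are alike. These differences in RNA content and day cannot be told apart between days 0 and 3 either. Of 18 mesenchymal marker genes that are not collagens, 14, 13 and 4 reached 10 CPM, and of 15 neuron markers 3, 3 and 15 did. The label of induced neuron cells thus went with its markers at day 5, while the day 3 library had 98.1 CPM summed over the neuron markers, near the 94.2 CPM of day 0. Cell barcodes shared between libraries numbered 63 for days 0 and 3, 27 for days 3 and 5 and 47 for days 0 and 5.

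The 41 genes together took 6480 CPM at day 0, 9382 CPM at day 3 and 1520 CPM at day 5. Collagen RNA was thus a larger fraction of the library at day 3 than at day 0, and a smaller one at day 5. In the day 0 library 19 of the 41 genes reached 10 CPM, against 23 at day 3 and 18 at day 5. At 1 CPM or more there were 23, 30 and 37 genes. Neither limit was counted over all genes, so these numbers have no background and are not read as particular to collagens. COL4A3, COL9A1, COL22A1 and COL23A1 had 0 UMIs at day 0, and COL9A1 and COL22A1 had 0 at day 3, where 3 UMIs would be 0.0122 and 0.160 CPM. In total 28 genes reached 10 CPM in at least 1 library, and 6 of these had their highest level at day 0, 17 at day 3 and 5 at day 5. All genes were not split in this way, so no background stands beside these counts. The 5 with the highest level at day 5 were COL2A1, COL27A1, COL10A1, COL23A1 and COL25A1. COL11A1 is among the 17, although its day 3 and day 5 intervals overlapped.

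**Figure D1:**
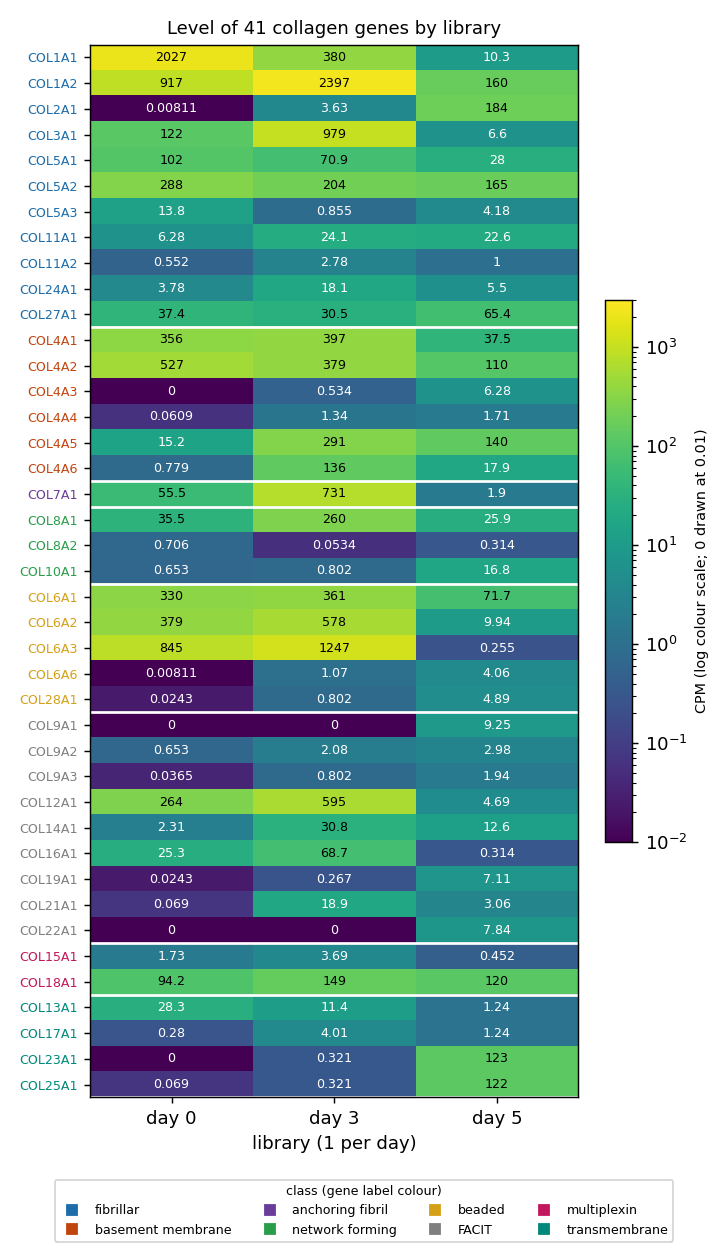
Level of each of the 41 collagen genes (rows, gene labels coloured by class) in the 3 libraries (columns), as CPM printed in each cell and drawn on a log colour scale. In the day 5 column COL6A3 (0.255) and COL16A1 (0.314) are dark, and brighter cells than at days 0 and 3 stand at COL2A1 (184), COL23A1 (123) and COL25A1 (122).

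The composition of the collagen RNA differed between libraries as well as its amount. Fibrillar genes summed to 3518, 4112 and 653 CPM at days 0, 3 and 5, and basement membrane genes to 899, 1205 and 313 CPM. The beaded class, which is mainly type VI, took 1553, 2188 and 90.8 CPM, or 24.0%, 23.3% and 5.98% of all collagen UMIs. Transmembrane collagens went the other way, with 28.6, 16.1 and 248 CPM, or 0.442%, 0.171% and 16.3% of collagen UMIs. The anchoring fibril gene COL7A1 stood at 55.5, 731 and 1.90 CPM. FACIT genes summed to 293, 717 and 49.8 CPM, network-forming genes to 36.8, 260 and 43.0 CPM, and multiplexins to 95.9, 153 and 120 CPM. Since UMIs are not a measure per length, these sums weigh each chain by its captured molecules.

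The 3 comparisons differed in direction. From day 0 to day 3, 24 of the 41 genes reached 10 CPM in 1 of the 2 libraries, and 12 of them were higher and 3 lower at day 3. Of all 10431 genes tested, 37.6% were called higher and 19.1% lower, 56.8% in all, so the 62.5% of collagens called was near the background. From day 3 to day 5, 27 genes were tested, with 5 higher and 19 lower at day 5. Here 88.9% of the collagens were called, 70.4% as lower, where the background of 12623 genes had 65.2% called, 36.5% higher and 28.7% lower. From day 0 to day 5, 8 of 26 were higher and 14 lower, against a background of 75.1% called, 49.1% higher and 26% lower among 12084 genes. The median log2 ratio of the tested collagens was 0.92, -2.33 and -1.80 in these 3 comparisons, beside 0.49, 0.16 and 0.93 over all genes tested. Day 3 enters the first and the second comparison, and day 0 the first and the third, so they share libraries.

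The split between higher and lower at day 3 depended on how the libraries were scaled. Over all genes with at least 10 UMIs in each library, the median log2 ratio on the CPM scale was 0.81 for day 3 over day 0, -0.22 for day 5 over day 3 and 0.71 for day 5 over day 0. With TMM scaling, which assumes that most genes do not change, 8 collagens were higher and 9 lower at day 3 than at day 0, in place of 12 and 3. This rescaling moves every gene alike, and the shares of all genes called under TMM are not given here. The TMM counts are thus not set against a background. The median ratio of all collagens with at least 3 UMIs in 1 of the 2 libraries was 0.80 for day 5 over day 0 on CPM and -0.33 with TMM, where the all-gene medians were 1.97 and 0.84. Between day 3 and day 5 the split stayed close, with 5 higher and 17 lower under TMM. At day 0, 7555 barcodes in 4 clusters with a median under 5000 UMIs had 1490 CPM of collagens in sum, against 6791 CPM in the other day 0 cells. Without those clusters the day 3 counts were again 12 higher and 3 lower.

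Type I collagen, the main fibrillar collagen of skin and bone, is built of 2 chains of COL1A1 and 1 of COL1A2. COL1A1 stood at 2027 CPM (2022 to 2033) at day 0, 380 (372 to 389) at day 3 and 10.3 (9.48 to 11.3) at day 5. The day 0 library was highest and day 5 lowest, with a 5.33-fold lower level at day 3 and a further 36.8-fold lower level at day 5. COL1A2 stood at 917 CPM (913 to 921), 2397 (2375 to 2419) and 160 (157 to 164). It was thus highest at day 3, where COL1A1 had already dropped, although with TMM its day 3 over day 0 log2 ratio was 0.19 in place of 1.39. COL3A1, whose type III homotrimers are laid down with type I in skin and vessels, stood at 122, 979 and 6.60 CPM. It was 8.05-fold higher at day 3 than at day 0 and 148-fold lower at day 5 than at day 3.

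Type V collagen starts type I fibrils and limits their width. COL5A1 stood at 102, 70.9 and 28.0 CPM at days 0, 3 and 5 and was called lower at day 5 against both other libraries. With TMM it was also lower at day 3 than at day 0 (log2 ratio -1.73). COL5A2 stood at 288, 204 and 165 CPM and met the limit in none of the 3 comparisons, with ratios between 1.24 and 1.75. With TMM, COL5A2 was lower in the day 3 and in the day 5 library than at day 0 (log2 ratios -1.69 and -1.94). COL5A3, a rarer type V chain, stood at 13.8, 0.855 and 4.18 CPM, 16.2-fold lower at day 3 than at day 0. Averaged over cells or thinned to 1 depth, its level was under 10 CPM in every library, so it was not called (day 3 over day 0 log2 ratios -3.15 and -2.97). The type XI chain COL11A1, a relative of type V that nucleates cartilage fibrils, stood at 6.28, 24.1 and 22.6 CPM, with overlapping intervals at days 3 and 5. With TMM neither its day 3 nor its day 5 level reached the 2-fold limit over day 0 (0.74 and 0.71).

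COL2A1 encodes the chain of type II collagen, the main fibril of cartilage. It had 2 UMIs at day 0 (0.00811 CPM), 68 at day 3 (3.63 CPM, 2.82 to 4.61) and 9378 at day 5 (184 CPM, 180 to 188). The day 5 level was 50.7-fold that of day 3 (interval of the ratio 39.9 to 65.3). The cartilage aggrecan gene ACAN, 1 of the 8 cartilage markers that are not collagens, stood at 0.275 CPM at day 5, and EPYC had 0 UMIs there, while 2 of the 8, SOX5 and SOX6, reached 10 CPM. The fibrillar gene COL27A1 stood at 37.4, 30.5 and 65.4 CPM, and its 2.14-fold higher level at day 5 than at day 3 fell under the 2-fold limit with all day 5 barcodes of 1000 UMIs, with a strict cell filter and in thinned cells (log2 ratios 0.94, 0.89 and 0.97). COL27A1 was also called lower at day 3 than at day 0 with TMM (-1.49), and higher at day 5 than at day 0 with per-cell means and in thinned cells (1.33 and 1.13). COL24A1, a minor fibrillar chain, stood at 3.78, 18.1 and 5.50 CPM. Its day 3 level was above both others. COL11A2 stayed under 10 CPM in all libraries, with 0.552, 2.78 and 1.00 CPM.

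The 6 type IV genes lie in 3 head-to-head pairs, COL4A1 with COL4A2 on chromosome 13, COL4A3 with COL4A4 on chromosome 2 and COL4A5 with COL4A6 on chromosome X. In RefSeq (GRCh38.p14) the starts of the paired genes are 126, 418 and 379 bases apart. Of the 41 genes, 31 matched an entry in the RefSeq promoter table. The stretch between the COL4A1 and COL4A2 starts, at chr13:110307158-110307283, is shown on the plus strand because 1 short region lies before both genes. Capitals mark matches on either strand to the CCAAT box (CCAAT) and the GC box (GGGCGG), as also in the other promoters shown. Of 35116 RefSeq windows of 250 bases before a start, 32.0% held CCAAT and 42.6% held GGGCGG, against 12 and 24 of the 43 windows of the 31 matched collagens.
COL4A1/COL4A2: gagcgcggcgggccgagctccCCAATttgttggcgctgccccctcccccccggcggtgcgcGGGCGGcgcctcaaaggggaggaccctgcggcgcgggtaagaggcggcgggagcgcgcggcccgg
The stretch holds 1 match to each motif and 20 CpG. A second sequence shows the 250 bases before COL4A5, at chrX:108439588-108439837 on the plus strand, which reach into the region shared with COL4A6. It holds 2 CCAAT matches, 1 on each strand, and 8 CpG, where the median over all windows was 11.
COL4A5: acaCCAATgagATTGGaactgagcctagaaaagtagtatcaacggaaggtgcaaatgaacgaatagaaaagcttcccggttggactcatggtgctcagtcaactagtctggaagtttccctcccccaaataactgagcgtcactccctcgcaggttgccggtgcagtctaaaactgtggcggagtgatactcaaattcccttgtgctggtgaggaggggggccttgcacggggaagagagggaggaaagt

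COL4A1 and COL4A2 encode the chains found in nearly every basement membrane. COL4A1 stood at 356, 397 and 37.5 CPM at days 0, 3 and 5, and COL4A2 at 527, 379 and 110 CPM. Neither was called between days 0 and 3 on the CPM scale, and both were lower at day 5 than at day 3, by 10.6-fold for COL4A1 and 3.44-fold for COL4A2. With TMM both were lower at day 3 than at day 0 (log2 ratios -1.04 and -1.67). COL4A5 and COL4A6 encode chains of a more restricted basement membrane network. COL4A5 stood at 15.2 CPM (14.7 to 15.7), 291 (283 to 299) and 140 (136 to 143), 19.1-fold higher at day 3 than at day 0. COL4A6 stood at 0.779 CPM (0.673 to 0.897), 136 (131 to 141) and 17.9 (16.8 to 19.2), 174-fold higher at day 3. Both were lower at day 5 than at day 3, by 2.08-fold and 7.57-fold, and remained above day 0. For COL4A5 the day 5 over day 3 log2 ratio was -1.06 on CPM and -0.997 with TMM, just inside the limit on 1 scale and just outside it on the other. COL4A3 had 0 UMIs, 0.534 and 6.28 CPM, and COL4A4 0.0609, 1.34 and 1.71 CPM, so the COL4A3 and COL4A4 pair stayed under 10 CPM throughout.

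Type VII collagen anchors the epidermal basement membrane to the dermis, and COL7A1 is its only gene. COL7A1 stood at 55.5 CPM (54.5 to 56.4) at day 0, 731 (719 to 743) at day 3 and 1.90 (1.54 to 2.32) at day 5. The day 3 library was 13.2-fold above day 0, and day 5 was 384-fold below day 3 (314 to 473). Among the network-forming genes, COL8A1 of vessel wall and corneal type VIII collagen stood at 35.5, 260 and 25.9 CPM. It was 7.31-fold higher at day 3 than at day 0, and days 0 and 5 differed by less than the limit on the CPM scale. With TMM COL8A1 was lower at day 5 than at day 0 (log2 ratio -1.59). COL10A1, the collagen of hypertrophic cartilage, stood at 0.653, 0.802 and 16.8 CPM. Its day 5 level was 21.0-fold that of day 3 (12.6 to 37.6). COL8A2 stayed under 1 CPM, with 1 UMI at day 3.

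Type VI collagen assembles from COL6A1, COL6A2 and a further, larger chain that in most tissues is COL6A3. COL6A1 stood at 330, 361 and 71.7 CPM at days 0, 3 and 5, COL6A2 at 379, 578 and 9.94 CPM, and COL6A3 at 845, 1247 and 0.255 CPM. On the CPM scale none of the 3 was called between days 0 and 3, and all 3 were lower at day 5. For day 3 over day 0 the other scalings went both ways: COL6A1 was lower with TMM (log2 ratio -1.06), while COL6A2 and COL6A3 were higher with per-cell means (1.13 and 1.15) and in thinned cells (1.02 and 1.03). The size of the difference was not alike: day 5 lay 5.04-fold below day 3 for COL6A1, 58.1-fold for COL6A2 and 4886-fold for COL6A3. COL6A3 had 13 UMIs in the whole day 5 library, against 23340 at day 3 and 208147 at day 0, and the interval of its ratio ran from 2857 to 9179. The 250 bases before the COL6A3 start, at chr2:237414165-237414414 on the minus strand, are shown because COL6A3 had the largest of these 3 day 5 differences, and hold no match to either motif and 3 CpG.
COL6A3: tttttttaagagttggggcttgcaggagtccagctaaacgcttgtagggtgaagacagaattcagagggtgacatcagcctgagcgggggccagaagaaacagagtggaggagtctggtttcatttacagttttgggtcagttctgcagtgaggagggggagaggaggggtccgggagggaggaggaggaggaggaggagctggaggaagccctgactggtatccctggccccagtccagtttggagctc
COL6A6, an alternative to COL6A3, stood at 0.00811, 1.07 and 4.06 CPM, highest at day 5. COL28A1, which carries von Willebrand factor A domains as type VI does, stood at 0.0243, 0.802 and 4.89 CPM.

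All 4 FACIT genes tested between days 0 and 3 were higher at day 3 on the CPM scale. COL12A1, a type XII chain that bridges fibrils in dermis and tendon, stood at 264, 595 and 4.69 CPM, and was 127-fold lower at day 5 than at day 3. COL14A1, another fibril-surface collagen, stood at 2.31, 30.8 and 12.6 CPM. COL16A1 stood at 25.3, 68.7 and 0.314 CPM, and COL21A1 at 0.0690, 18.9 and 3.06 CPM. With TMM the day 3 over day 0 log2 ratio of COL12A1 was -0.03 in place of 1.17 and that of COL16A1 0.25 in place of 1.44, while COL14A1 and COL21A1 kept their calls. With a strict cell filter the ratios of COL12A1 and COL16A1 were 0.94 and 0.97, also under the limit. COL14A1 was 5.47-fold higher at day 5 than at day 0, a call that was lost with TMM, where both levels were under 10 CPM. All 4 were lower at day 5 than at day 3. The other FACIT genes stayed under 10 CPM: COL9A1 had 0 UMIs at days 0 and 3 and 9.25 CPM at day 5, COL22A1 0, 0 and 7.84 CPM, and COL19A1 0.0243, 0.267 and 7.11 CPM. These 3 were thus highest at day 5, although at a level below the limit for a call. COL9A2 and COL9A3, the partner chains of COL9A1 in type IX collagen of cartilage, stood at 2.98 and 1.94 CPM at day 5.

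The multiplexin COL18A1, a basement membrane collagen that is the source of endostatin, stood at 94.2, 149 and 120 CPM and was called in none of the comparisons on the CPM scale. It was called higher at day 3 than at day 0 with per-cell means and in thinned cells (log2 ratios 1.34 and 1.11), and higher at day 5 than at day 0 with per-cell means (1.04). COL15A1 stood at 1.73, 3.69 and 0.452 CPM. Among the transmembrane genes, COL13A1, found at cell adhesions and the neuromuscular junction, stood at 28.3, 11.4 and 1.24 CPM, lower in each later library. Its day 3 call was lost when cells were averaged or thinned to 1 depth (log2 ratios -0.84 and -0.88 in place of -1.31). With TMM its day 3 and day 5 levels were both under 10 CPM, so it was not called between them. COL17A1, a hemidesmosome component, stood at 0.280, 4.01 and 1.24 CPM.

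COL23A1 and COL25A1 showed the opposite pattern to the fibroblast collagens. COL23A1 had 0 UMIs at day 0, 6 at day 3 (0.321 CPM, 0.118 to 0.698) and 6262 at day 5 (123 CPM, 120 to 126). COL25A1, a neuronal transmembrane collagen whose shed ectodomain was found in amyloid plaques, had 17 UMIs at day 0 (0.0690 CPM), 6 at day 3 (0.321 CPM) and 6230 at day 5 (122 CPM, 119 to 125). The day 5 levels were 383-fold (176 to 1045) and 382-fold (175 to 1040) those of day 3, and against 0 UMIs at day 0 COL23A1 was at least 10103-fold higher. Both genes, on chromosomes 5 and 4, thus had 17 UMIs or fewer in the day 0 and the day 3 library. Their promoter windows are shown because of these day 5 differences, COL23A1 at chr5:178590394-178590643 and COL25A1 at chr4:109302659-109302908, both on the minus strand.
COL23A1: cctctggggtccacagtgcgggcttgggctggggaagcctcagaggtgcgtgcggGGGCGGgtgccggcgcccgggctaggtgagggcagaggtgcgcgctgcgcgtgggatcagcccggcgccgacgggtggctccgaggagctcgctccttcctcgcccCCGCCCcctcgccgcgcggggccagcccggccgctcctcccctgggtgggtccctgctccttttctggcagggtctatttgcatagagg
COL25A1: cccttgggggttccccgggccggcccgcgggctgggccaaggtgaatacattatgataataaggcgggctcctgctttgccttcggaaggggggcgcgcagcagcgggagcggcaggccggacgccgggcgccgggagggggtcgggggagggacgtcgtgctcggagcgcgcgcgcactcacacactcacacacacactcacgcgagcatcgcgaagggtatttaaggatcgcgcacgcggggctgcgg
The COL23A1 window holds 2 GC box matches, 1 on each strand, and 25 CpG, and the COL25A1 window 32 CpG and no match to either motif. The palindromic cAMP response element TGACGTCA was in 1.65% of all windows and in 0 of the 43 collagen windows, and the AP-1 motif TGANTCA in 6.57% of all windows and in 1 of the 43.

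The ratio between chains of 1 collagen type was compared within each library, where depth cancels. For type I, COL1A2 UMIs per COL1A1 UMI were 0.452 (exact binomial 95% interval 0.450 to 0.455) at day 0, 6.30 (6.14 to 6.46) at day 3 and 15.5 (14.2 to 16.9) at day 5. The ratio was thus higher in each later library, with separate intervals. For type VI, COL6A3 per COL6A1 was 2.56, 3.45 and 0.00356, and COL6A2 per COL6A1 was 1.15, 1.60 and 0.139. Both type VI ratios were higher at day 3 than at day 0, with separate intervals. At day 5 both were far below either earlier library. COL4A2 per COL4A1 was 1.48, 0.956 and 2.94, and COL5A2 per COL5A1 was 2.81, 2.88 and 5.88. For the divergent pair on chromosome X, COL4A6 per COL4A5 was 0.0512, 0.467 and 0.128, so the 2 genes did not keep a fixed ratio. COL4A4 per COL4A3 was 2.5 at day 3, from 25 and 10 UMIs, and 0.272 at day 5. COL8A2 per COL8A1 was 0.0199 at day 0 and 0.0121 at day 5. Because capture can differ between genes, a ratio is read only against the same ratio in another library.

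**Figure D2:**
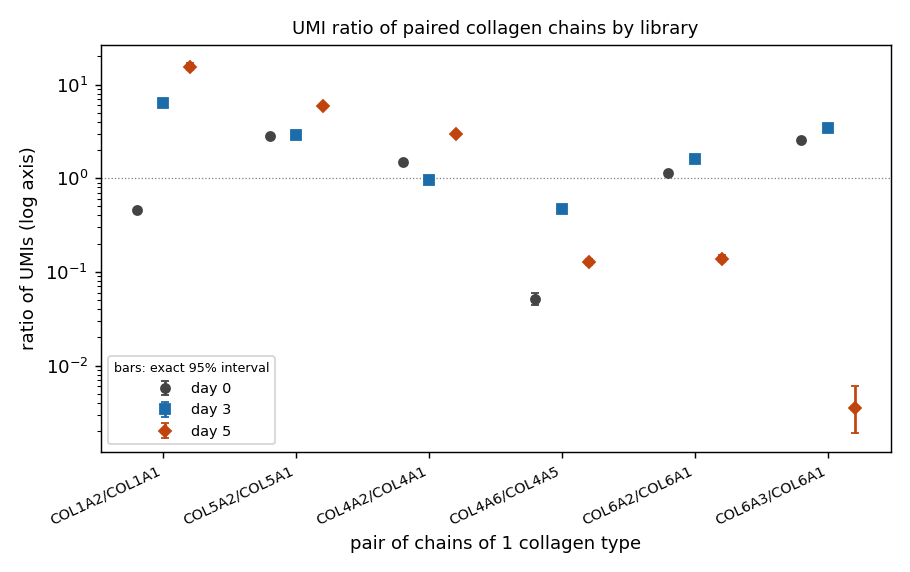
Ratio of the UMIs of 2 chains of 1 collagen type (log axis) for 6 pairs, with 1 symbol per library and exact 95% intervals. COL1A2/COL1A1 climbs from 0.452 to 6.30 and 15.5, while COL6A3/COL6A1 lies at 2.56, 3.45 and 0.00356.

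The share of cells with a UMI was taken with each cell thinned to 1000 UMIs, which left out 2391 shallower cells at day 0 and 3013 at day 3. For the genes below other than COL5A2 it ranked the libraries as the levels did. Not all genes followed: COL4A2 was found in 27.9% of thinned cells at day 0 and 31.6% at day 3, against 527 and 379 CPM. COL1A1 was found in 58.7% (exact binomial 57.9 to 59.5), 31.7% (30.7 to 32.7) and 0.673% (0.516 to 0.861) of thinned cells at days 0, 3 and 5. COL1A2 was found in 39.4%, 88.5% and 15.2%, COL3A1 in 7.53%, 60.7% and 0.651%, and COL7A1 in 4.04%, 48.2% and 0.228%. At day 3 these 3 were therefore spread over much of the library. COL6A3 was found in 40.4% and 69.2% of cells and then in 4 of 9219 (0.0434%). COL2A1 was found in 0%, 0.344% and 17.1%, with 0 of 14382 thinned cells at day 0 allowing a share with a UMI of up to 0.0209%. COL23A1 was found in 0%, 0.0355% and 7.40%, and COL25A1 in 0%, 0.0237% and 7.06%. COL5A2 was nearly level, at 17.4%, 18.6% and 14.4%, although its CPM was lower at day 3 than at day 0. Without thinning the day 5 shares were 3.33% for COL1A1, 45.4% for COL1A2, 52.1% for COL2A1, 20.6% for COL23A1 and 18.6% for COL25A1.

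Day 0 and day 3 cells were clustered without the collagens and their partner genes, to see how evenly the genes were spread. At day 0, COL1A1 was highest in a cluster of 158 cells, at 3956 CPM (3799 to 4119), and next in a cluster of 860 cells, at 2758 CPM. It was lowest in a cluster of 2981 cells led by RAB13, at 126 CPM, and stood at 354 CPM in a second RAB13-led cluster of 4356 cells. The clusters with a median under 5000 UMIs held both the highest and the lowest COL1A1 level. At day 3 the 4 clusters had COL1A2 levels between 1818 and 2527 CPM, COL3A1 between 731 and 1438 CPM, COL7A1 between 439 and 857 CPM and COL4A6 between 112 and 144 CPM. No day 3 cluster was without these collagens.

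Genes that make, cross-link or bind collagen were followed as 71 partners in 7 roles, a list set by role. From day 0 to day 3, 20 of 57 tested partners were higher and 11 lower, or 35.1% and 19.3%, near the 37.6% and 19.1% of all genes. From day 3 to day 5, 6 of 57 were higher and 35 lower (61.4%, against 28.7% of all genes), and from day 0 to day 5, 9 of 56 were higher and 36 lower (64.3%, against 26%). The partners thus had mostly lower levels at day 5, as the tested collagens did, beside a background in which more genes were higher than lower. With TMM the day 3 counts were 5 higher and 24 lower, without an all-gene share under TMM beside them.

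Among the enzymes that hydroxylate and glycosylate the chains, 9 of 13 were lower and 2 higher at day 5 than at day 3. The prolyl 4-hydroxylase subunit P4HA2 stood at 74.6, 93.3 and 4.91 CPM at days 0, 3 and 5, and P4HA3 at 6.50, 126 and 43.0 CPM. The prolyl 3-hydroxylase P3H2 stood at 123, 4.70 and 12.2 CPM, and the collagen galactosyltransferase COLGALT2 at 4.96, 1.39 and 25.9 CPM. Of the chaperones and export factors, CRTAP, a partner of prolyl 3-hydroxylation, stood at 160, 66.5 and 13.0 CPM, and the prolyl isomerase FKBP10 at 149, 193 and 66.6 CPM. The export receptors MIA2 and MIA3, which load bulky procollagen into carriers, stood at 13.9, 53.1 and 67.2 CPM and at 34.5, 94.1 and 63.9 CPM. Of 9 such genes 4 were lower and 0 higher at day 5 than at day 3.

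Outside the cell, procollagen is trimmed and cross-linked. The proteinase ADAMTS2 stood at 58.1, 9.78 and 9.88 CPM at days 0, 3 and 5, the proteinase enhancer PCOLCE at 57.1, 188 and 6.17 CPM, and BMP1 at 44.7, 71.0 and 39.8 CPM. Lysyl oxidase LOX stood at 230, 210 and 1.67 CPM, 126-fold lower at day 5 than at day 3. Its relatives stood at 169, 19.7 and 11.5 CPM for LOXL1, 325, 134 and 7.32 CPM for LOXL2 and 8.36, 33.4 and 26.5 CPM for LOXL3. Of the collagen receptors, 6 of 8 were lower and 1 higher at day 5 than at day 3. The integrin chain ITGA2 stood at 444, 594 and 11.4 CPM, ITGA11 at 24.9, 114 and 2.53 CPM, and their common beta chain ITGB1 at 1472, 406 and 299 CPM.

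Basement membrane partners were mixed. The laminin chain LAMA1, known from the embryonic neural tube, stood at 1.42, 23.8 and 198 CPM, and LAMA2 at 3.22, 20.6 and 38.3 CPM. Nidogen NID2 stood at 30.6, 80.3 and 1.85 CPM. Of 13 such partners 7 were lower and 2 higher at day 5 than at day 3. Of the proteins that coat or organise fibrils, TGFBI stood at 469, 1398 and 0.530 CPM, THBS1 at 393, 35.6 and 24.4 CPM, and THBS2 at 4.15, 382 and 8.90 CPM. The TGFBI level at day 5 was 2636-fold below that of day 3 (1812 to 4001), a size also seen for COL6A3.

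Over all genes, the day 5 ratios went with intron length, so the collagens were set beside other genes of similar length in GENCODE 29. Of 2892 other tested genes with at least 100000 intron bases, 2150 were higher and 196 lower at day 5 than at day 3, with a median log2 ratio of 2.40. Of the 17 tested collagens of that length, 3 were higher and 11 lower, with a median of -1.34. Between 20000 and 100000 bases, the other 5089 genes had a median of 0.42, and the 8 collagens had 2 higher and 6 lower with a median of -6.54. The 2 collagens under 20000 bases, COL1A1 and COL6A1, were lower, as were 2540 of 4615 other genes. COL12A1, COL4A1 and COL4A2 were among the 11 lower ones of at least 100000 bases. The higher COL23A1 and COL25A1 have 349172 and 485284 intron bases, and the higher COL2A1 and COL10A1 have 24926 and 36009. The part of intron length in the day 5 levels was not tested.

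**Figure D3:**
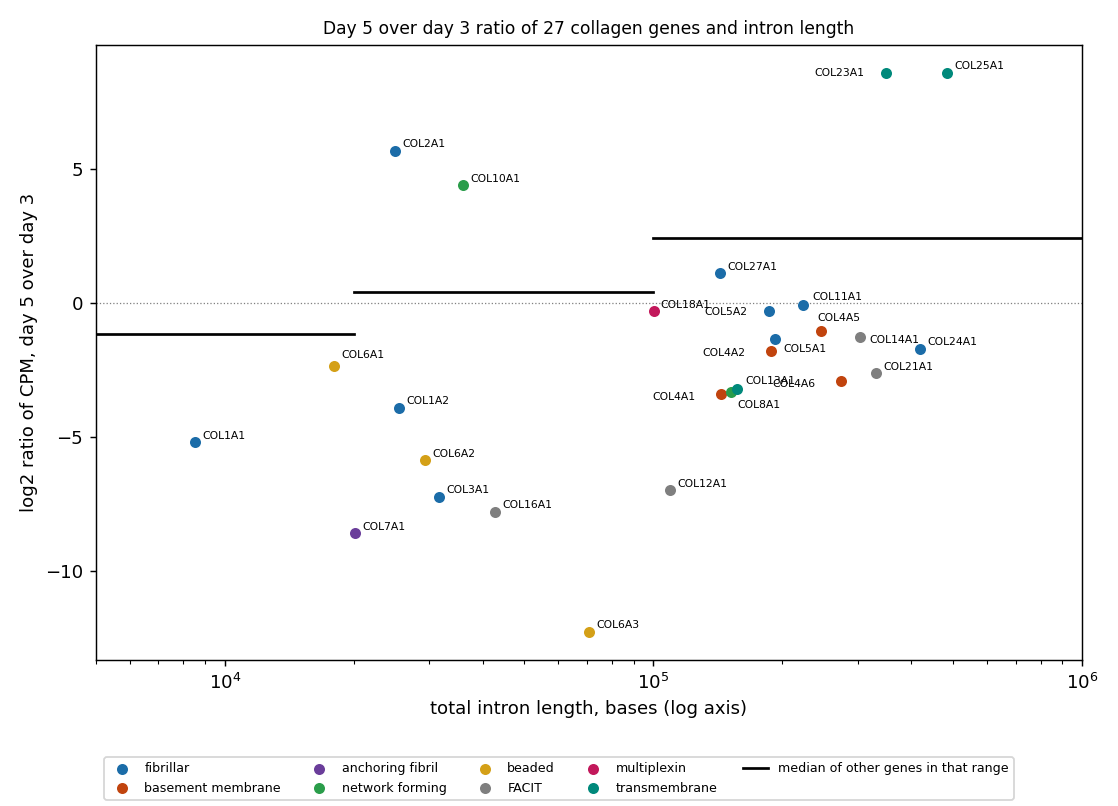
Log2 ratio of CPM, day 5 over day 3, of the 27 tested collagen genes (points, coloured by class) against total intron length on a log axis, with the median of other tested genes in 3 length ranges as black lines. The 17 collagens of at least 100000 bases have a median of -1.34 where other genes lie at 2.40, and COL6A3 is the lowest point.

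The day 5 library was divided into 13 clusters made without the collagens and partners, so that these genes did not define the groups. Clusters were named from marker genes, and 3 stayed unnamed. Cluster 0 (2765 cells) was unnamed. There 7 of 12 floor and roof plate markers, among them SHH and FOXA2, were at least 2-fold above the rest. LMX1A, 1 of the 7, stood at 0.801 CPM, and RSPO1 and WNT1 of that list at 0 CPM. Equally 2-fold above were 6 of 18 mesenchymal markers, of which TWIST1 (4.13 CPM), PDGFRB (7.88) and DCN (9.24) were under 10 CPM. So were 2 of 15 neural progenitor markers, RFX4 (3896 CPM) and SLC1A3 (479 CPM). Cluster 4 (543 cells) was unnamed, with 2 mesenchymal markers (PDGFRB and FOXC2) and 2 pericyte markers (ABCC9 and CNN1) at least 2-fold above the rest. Cluster 11 (137 cells) was the other unnamed cluster. The named ones were cycling-like (cluster 1), neural progenitor-like (2), neuronal precursor-like (5), floor and roof plate-like (12), GABA and glycine neuron-like (3, 6 and 10) and neuron-like (7, 8 and 9). Mesenchymal markers summed to 103 CPM in cluster 4 and to between 99.2 and 852 CPM over the 13 clusters, and FOXF1 had 0 UMIs in the whole library. The 852 CPM of cluster 5 were mostly EBF2 (781 CPM), which is also a neuronal factor. The values that follow describe clusters of 1 library.

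Of the 18 collagens at 10 CPM or more at day 5, 7 were highest in cluster 4, 4 in cluster 0, 4 in cluster 12 and 1 each in clusters 1, 10 and 11. In 12 of the 18 the highest cluster was at least 2-fold above the library. The same counts were not made over all genes. Most of the 7 genes highest in cluster 4 are chains known from fibroblasts. It had 73.7 CPM of COL1A1 (63.8 to 84.6), against 13.0 (4.76 to 28.2) in the next cluster and 10.3 in the library, and held 38.0% of all COL1A1 UMIs with 5.33% of the library. It also had 123 CPM of COL14A1, where the next cluster had 13.8, and 51.9% of its UMIs. COL5A1 stood there at 86.6 CPM, COL5A2 at 365, COL4A1 at 137 and COL8A1 at 73.7, each with an interval separate from the next cluster. COL11A1 (77.0 CPM) overlapped with cluster 12 (72.5). Clustering again with a strict cell filter lowered the highest cluster's COL1A1 to 15.3 CPM (and the library to 6.40), COL4A1 to 79.9 and COL5A1 to 55.6. With all barcodes of 1000 UMIs the highest cluster had 41.5 CPM of COL1A1 and 69.7 of COL14A1, and at resolution 1 it had 148 CPM of COL1A1, 123 of COL11A1 and 111 of COL8A1. COL6A3 stayed at 1.47 CPM in cluster 4, from 4 UMIs, so that the chain that was far lower at day 5 was low there as well.

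Cluster 0 was the highest cluster for 4 of the 5 collagens that had their highest level at day 5, COL2A1, COL27A1, COL23A1 and COL25A1. COL23A1 stood at 317 CPM there (308 to 325), against 61.8 in the next cluster and 14.8 in the lowest, and cluster 0 held 82.1% of COL23A1 UMIs with 31.9% of the library. COL25A1 stood at 298 CPM in cluster 0, 177 in cluster 12 and 147 in cluster 4, with 77.7% of its UMIs in cluster 0. In cells thinned to 1000 UMIs, COL23A1 was found in 19.6% of cluster 0 (18.1 to 21.1) and in 3 of 319 cells (0.940%) of neuron-like cluster 8. COL27A1 stood at 154 CPM in cluster 0 against 82.0 in the next. COL2A1 stood at 323 CPM in cluster 0 and 266 in cluster 11, with overlapping intervals, and no cluster was below 62.9 CPM. The highest cluster had 527 CPM of COL2A1 when all barcodes of 1000 UMIs were clustered, and 595 CPM of COL23A1 at resolution 1. The same cluster had the lowest COL4A1 (18.7 CPM) and COL4A2 (50.9 CPM) of the 13. Cluster 0 and cluster 4 thus differed in which collagens they held.

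Cluster 12, the floor and roof plate-like group of 96 cells, was highest for COL1A2 (648 CPM, 581 to 721), COL4A5 (263 CPM) and COL4A6 (95.3 CPM), and COL1A1 stood there at 11.4 CPM. COL1A2 therefore did not go with COL1A1 in this group. COL3A1 was also highest in cluster 12, at 68.6 CPM against 6.60 in the library. COL4A5 ranged from 263 CPM there to 19.5 in neuron-like cluster 8. COL19A1, a FACIT gene known from some interneurons, stood at 84.6 CPM (67.9 to 104) in GABA and glycine neuron-like cluster 10, against 16.2 in the next cluster and 7.11 in the library. It was singled out after its values were seen. COL9A1 was highest in cycling-like cluster 1, at 26.8 CPM. COL6A1 and COL18A1 were among the most even, with a highest-to-lowest ratio of 2.30 and 3.98 over the 13 clusters. With all barcodes of 1000 UMIs, the highest cluster had 27.3 CPM of COL4A6, 236 of COL6A1 and 351 of COL18A1.

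**Figure D4:**
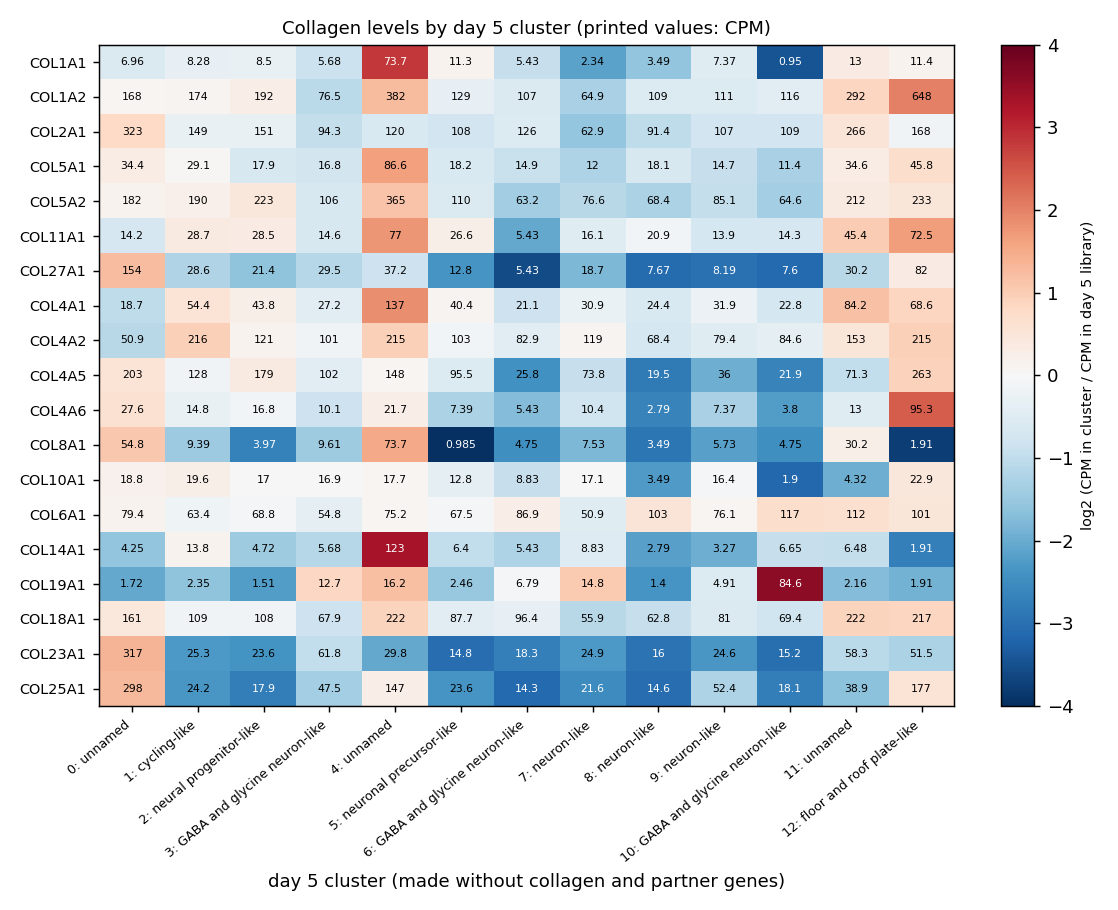
Level of the 18 collagens at 10 CPM or more at day 5, and of COL19A1, in the 13 day 5 clusters, printed as CPM and coloured by the log2 ratio to the library. COL14A1 (123) and COL1A1 (73.7) stand out in cluster 4, COL23A1 (317) in cluster 0 and COL19A1 (84.6) in cluster 10.

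The day 5 file also held barcodes under the cell threshold, and 50562 of them with 500 to 1000 UMIs were summed to show the level of collagen RNA outside called cells. They had 2475 CPM of collagens, against 1520 CPM in the cells. Of the 41 genes 16 were higher in these barcodes, 14 lower and 11 had overlapping intervals. Among the 18 genes that reached 10 CPM at day 5, the low barcodes were above the cells in 11 and below them in 7. The same counts were not made over all genes, so no background stands beside them. COL1A2 stood at 516 CPM in the low barcodes against 160 in the cells, COL2A1 at 507 against 184, COL18A1 at 346 against 120 and COL6A1 at 223 against 71.7. The 7 lower genes were COL27A1, COL4A5, COL4A6, COL8A1, COL10A1, COL23A1 and COL25A1, with COL23A1 at 44.2 CPM against 123 and COL25A1 at 36.6 against 122. In neuron-like clusters, COL1A2 was found in 7.21% to 13.4% of thinned cells and COL2A1 in 5.96% to 10.4%, against 15.2% and 17.1% in the library. The part of free RNA in the day 5 levels of the 11 genes was not tested. When 17.6% of the low-barcode profile was subtracted from the cell levels, COL2A1 stood at 94.99 CPM, COL1A2 at 69.6, COL23A1 at 115 and COL25A1 at 116. This share was percentile 1 of the cell to low-barcode ratio over genes abundant in the low barcodes. Another share would give other values. COL5A2 at 119 CPM became lower than at day 0 (log2 ratio -1.27), and COL18A1 at 58.9 CPM lower than at day 3 (log2 ratio -1.34). COL14A1 at 8.97 CPM fell under 10 CPM and lost its day 5 over day 0 call.

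**Figure D5:**
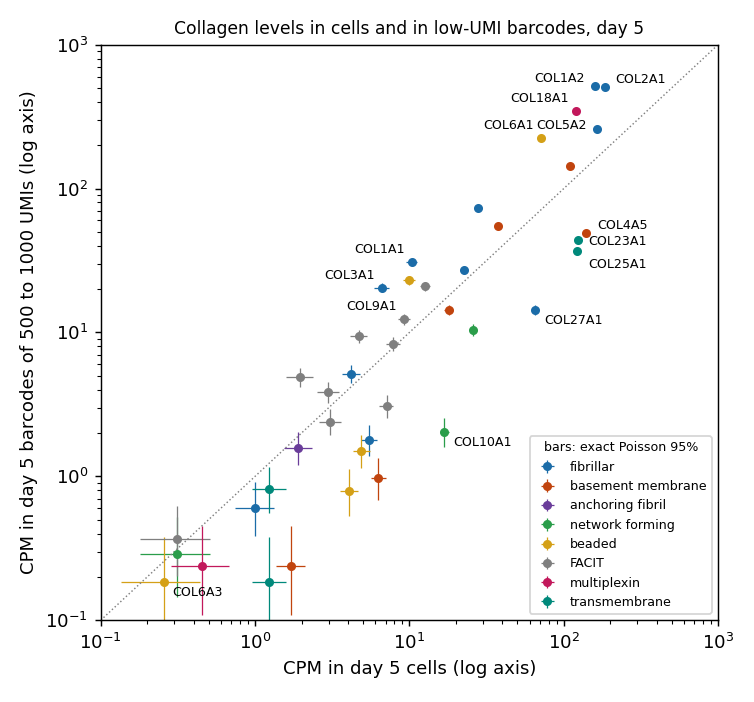
CPM of each collagen gene in day 5 barcodes of 500 to 1000 UMIs against its CPM in day 5 cells, both on log axes, with exact Poisson 95% intervals and the line of equal level dotted. COL1A2 (516 against 160) and COL2A1 (507 against 184) lie above the line, and COL23A1, COL25A1, COL4A5, COL27A1 and COL10A1 lie below it.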

How the data were processed

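Cells of 3 single-cell RNA libraries, 1 per group, were analysed from UMI count matrices that were deposited without normalization. The submitters' processing notes name Cell Ranger 4.0.0 and GRCh38 (hg38). The treatment of intronic reads and of strand is not stated in the labels or headers. The 3 files held 17504, 11488 and 2037119 barcodes, so that day 5 was unfiltered and a barcode there counted as a cell from 2154 UMIs (the 10000 deepest barcodes' percentile 99, divided by 10). Cells needed 500 UMIs, 300 genes and at most 20% mitochondrial UMIs. Scrublet marked 0, 2 and 0 doublets, too few to have worked, and doublets were kept. Totals over the 32732 shared genes were 246471041, 18710180 and 50922769 UMIs.

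The members, classes, partner and marker lists were chosen with earlier results of these data known. In ratios used to call or rank, UMIs under 3 were set at 3. Named partners were, per comparison and role, the 2 with the largest log2 ratio in size at 10 CPM or more. Genes of 10 CPM in any library are given in every library. COL19A1, the markers ACAN, EPYC and EBF2 and the cluster 0 markers given with levels were named after their values were seen. Each library was clustered with scanpy 1.11.5 and igraph 0.11.9 (2000 variable genes, 30 components, 15 neighbours, Leiden resolution 0.5) without members and partners. A cluster took the name of its best list with at least 3 markers 2-fold above the other cells, if that was at least 2 times the number of the next unrelated list or a marker was among its top 10 genes, a rule set after the clusters were seen. TMM came from edgeR 4.0.16 and was used only for scaling. The call rule was tested on simulated data. Promoters are RefSeq's, GRCh38.p14, and intron lengths GENCODE 29's. Intervals cover counting error only.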

Additional observations from a re-analysis of the deposited data

Results flagged for a closer look

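Collagen RNA was present in day 5 barcodes of 500 to 1000 UMIs, which enter no comparison between days, at a level above that of the called cells for 11 of the 18 collagens at 10 CPM or more. COL1A2 stood there at 516 CPM, COL2A1 at 507, COL18A1 at 346, COL5A2 at 259, COL6A1 at 223 and COL4A2 at 144 CPM. COL5A1 stood at 72.9 CPM, COL4A1 at 54.7, COL1A1 at 30.6, COL11A1 at 27.3 and COL14A1 at 20.9 CPM. In called cells these genes were at 160, 184, 120, 165, 71.7, 110, 28.0, 37.5, 10.3, 22.6 and 12.6 CPM, in the same order. The source of these molecules was not tested, and the same count was not made over all genes.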

How the results depend on the processing

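No paired analysis was possible because each group is 1 library. Over the main results, 183 values under another setting stayed within a tolerance (1.5 times for a count, 0.5 for a median log2 ratio, the 95% interval for a chain ratio), 33 moved further and 2 reversed. Of the ratios of single called genes 786 kept their call, 59 lost it and 1 reversed. For day 3 over day 0, TMM and the median of ratios gave 9 and 9 lower collagens (3 on CPM), 5 and 6 higher and 24 and 24 lower partners (20 and 11 on CPM), and a median log2 ratio of 0.74 and 0.78 (1.94 on CPM). COL12A1 reversed there under TMM (-0.026). Mean per-cell CPM and thinning gave 1 lower collagen and 7 lower partners each. A 50 CPM limit gave 1 lower collagen, a 1 CPM limit 19 higher collagens, and a ratio limit of 4 gave 7 higher and 5 lower partners. For day 5 over day 3, a 1 CPM limit gave 13 higher collagens and 12 higher partners, and a ratio limit of 4 gave 3 higher partners. For day 5 over day 0, the median log2 ratio of 0.80 became -0.33 with TMM and -0.32 with the median of ratios. A 1 CPM limit gave 19 higher collagens and 18 higher partners there, and a 50 CPM limit 4 and 5. Without thinning, 19 collagens at day 0 and 12 at day 5 had a UMI in at least 10% of cells (9 and 5 thinned). With the strict cell filter, COL5A2/COL5A1 was 2.88 and COL6A2/COL6A1 1.13 at day 0, COL1A2/COL1A1 6.80, COL5A2/COL5A1 2.64, COL6A3/COL6A1 3.63 and COL4A6/COL4A5 0.428 at day 3, and COL1A2/COL1A1 22.1 and COL4A2/COL4A1 3.16 at day 5. The causes were not tested, and the shares of all genes called under these settings are not given here. Leaving out day 0 clusters with a median under 5000 UMIs, chosen after seeing the data, moved no count of collagens. The lowest depth, at day 3, places 3 UMIs, the floor of the ratios, at 0.160 CPM.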
